A study of Ovis aries with 115 samples.

Results

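GRN (ENSOARG00000008164) and APOE (ENSOARG00000009438) were 2 of the 27054 sheep genes counted in the cervix, and their read counts were followed here through 4 ewe breeds, 2 kinds of oestrous cycle and 2 cycle phases. The pair was chosen by their read counts in Fur and NWS beside Suffolk in synchronised follicular ewes, so that phase is described for these breeds with no test. GRN encodes progranulin, a secreted glycoprotein that cells take up through the receptor sortilin or together with prosaposin and deliver to the lysosome, where it is cut into granulins that lysosomal enzymes depend on. APOE encodes apolipoprotein E, the protein that carries cholesterol and other lipids released by the transporters ABCA1 and ABCG1 and hands them to receptors of the LDL receptor family such as LRP1 and LRP8. Macrophages make both proteins in many tissues, and other cell types make them as well.

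RNA was sequenced from post mortem cervix with each library taken as 1 ewe, and all but 1 of the 115 libraries were placed in 12 groups of breed and state. Suffolk and Belclare ewes were Irish and of low and medium fertility after cervical insemination with frozen-thawed semen, whereas Fur and Norwegian White Sheep (NWS) ewes were Norwegian and of high fertility. Synchronised follicular ewes, whose cycle was labelled Induced and driven by exogenous hormones in every breed, numbered 10 Belclare, 8 Fur, 10 NWS and 11 Suffolk. Natural follicular ewes numbered 10, 10, 10 and 8 in that order, and synchronised luteal ewes 10, 9, 8 and 10. The study's methods describe the synchronised follicular ewes as multiparous, with tissue from the middle of the cervix. Each breed was sampled in 1 country, and a difference of breed cannot be told apart from one of country where Irish and Norwegian ewes are compared. Bulk tissue was sequenced, so fewer cells of a type and less RNA per cell cannot be told apart either.

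Totals ran from 12238996 to 31261671 counted read pairs per ewe, with a median of 17835128.5. GRN had between 1912 and 10608 counts per ewe and APOE between 936 and 9361, and both genes passed the filter on low counts. Levels are given as counts scaled to library size (CPM) on normalised library sizes and are compared between ewes, not between the genes, whose lengths were not used. The summed level of 9 epithelial markers was at least 550.7 CPM and that of 7 fibroblast markers at least 520.6 CPM in every grouped ewe. Some libraries stood apart. NWS natural follicular replicates 4 and 10 had 38.2 and 33.2 CPM of the mitochondrial gene COX-1, inside the Fur range of 25.7 to 49.1 CPM, where the other NWS ewes of that group had 817 CPM or more. Smooth muscle genes varied widely in the Irish breeds. ACTG2, the smooth muscle gamma actin, reached 847 and 1893 CPM in Suffolk natural follicular replicates 6 and 7 against 19.8 CPM in the lowest ewe of that group. It reached 5746 CPM in Belclare synchronised follicular replicate 2 and 2738 and 1237 CPM in Belclare natural follicular replicates 2 and 4.

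At the synchronised follicular phase, GRN was high in both Irish breeds and low in both Norwegian breeds. Suffolk ewes ran from 358 to 504 CPM with a median of 398, and their mean was 415 ± 48.4 CPM (SD, n = 11). Belclare ewes ran from 285 to 461 CPM with a median of 405, and their mean was 389 ± 51.3 CPM (SD, n = 10). Fur ewes ran from 130.0 to 329.6 CPM with a median of 220.4, a mean of 229.9 ± 66.6 CPM (SD, n = 8). NWS ewes ran from 183 to 311 CPM with a median of 197, a mean of 210 ± 37.8 CPM (SD, n = 10). Every Fur and every NWS ewe lay below every Suffolk ewe. Of all genes tested, the levels of 3.89% did not overlap between Fur and Suffolk and those of 3.67% between NWS and Suffolk. These are the values that chose the gene.

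At the natural follicular phase the Irish breeds again had the higher means of GRN, and Suffolk spread widely. Suffolk ewes ran from 155 to 522 CPM with a median of 360.3, and their mean was 349.5 ± 136 CPM (SD, n = 8). Belclare ewes ran from 249 to 431 CPM with a median of 373, and their mean was 356 ± 64.4 CPM (SD, n = 10). Suffolk replicates 6, 7 and 8, at 233, 155 and 231 CPM, and Belclare replicates 2 and 4, at 249 and 250.4 CPM, formed the low ends of these breeds. Replicates 6, 7 and 8 were among the 4 Suffolk ewes of that group with the most ACTG2, and the other of these, replicate 2, had 517 CPM of GRN. Replicates 2 and 4 were the 2 Belclare ewes with the most. Fur ewes ran from 217 to 301 CPM with a median of 245, a mean of 254 ± 28.9 CPM (SD, n = 10). NWS ewes ran from 216 to 345 CPM with a median of 269, a mean of 276 ± 44.5 CPM (SD, n = 10).

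At the synchronised luteal phase GRN was at its lowest in all 4 breeds. Suffolk ewes ran from 142 to 261 CPM with a median of 226, and their mean was 219.8 ± 33.6 CPM (SD, n = 10). Belclare ewes ran from 135 to 290.0 CPM with a median of 166, and their mean was 178 ± 43.4 CPM (SD, n = 10). The Belclare maximum came from replicate 7 alone, since the next ewe had 199.9 CPM. Fur ewes ran from 108 to 139 CPM with a median of 128, a mean of 126 ± 11.5 CPM (SD, n = 9), which was the narrowest spread of the 12 groups. NWS ewes ran from 122 to 178 CPM with a median of 152, a mean of 152 ± 24.1 CPM (SD, n = 8). Ordered by mean, the GRN groups rose from Fur luteal to Suffolk synchronised follicular, and the single step between neighbours that exceeded the SD of both was the first, from Fur luteal to NWS luteal. No other pair of neighbours differed by more than the larger of their SDs.

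APOE differed less between groups and more between ewes of a group. At the synchronised follicular phase Suffolk ewes ran from 241 to 393 CPM with a median of 316, and their mean was 316 ± 48.3 CPM (SD, n = 11). Belclare ewes ran from 151 to 348 CPM with a median of 266, and their mean was 259 ± 74.8 CPM (SD, n = 10). Fur ewes ran from 116 to 266 CPM with a median of 216, a mean of 207 ± 52.5 CPM (SD, n = 8). Of the Fur ewes, 6 of 8 lay below every Suffolk ewe. NWS ewes ran from 144 to 333 CPM with a median of 230.4, a mean of 241 ± 57.5 CPM (SD, n = 10). Of the NWS ewes, 6 of 10 lay below every Suffolk ewe, and all of these values, too, chose the gene.

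In the natural cycle the highest APOE mean was that of NWS. Suffolk ewes ran from 159 to 379 CPM with a median of 249.8, and their mean was 258 ± 76.1 CPM (SD, n = 8). Belclare ewes ran from 174 to 457 CPM with a median of 253, and their mean was 272 ± 77.8 CPM (SD, n = 10). The Fur ewes overlapped both Irish breeds throughout. They ran from 205 to 379 CPM with a median of 266, a mean of 277 ± 47.3 CPM (SD, n = 10). NWS ewes ran from 235 to 751 CPM with a median of 353, a mean of 367 ± 145 CPM (SD, n = 10). The NWS maximum was replicate 5 alone, and the next NWS ewe had 411 CPM.

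At the luteal phase the highest APOE mean was that of Suffolk. Suffolk ewes ran from 149 to 418 CPM with a median of 263, and their mean was 260.0 ± 94.1 CPM (SD, n = 10). Belclare ewes ran from 58.4 to 224 CPM with a median of 162, and their mean was 153 ± 57.9 CPM (SD, n = 10). Their ranges overlapped between 149 and 224 CPM. Fur ewes ran from 69.9 to 201 CPM with a median of 149, a mean of 140.0 ± 42.6 CPM (SD, n = 9). NWS ewes ran from 113.9 to 296 CPM with a median of 195, a mean of 195 ± 60.7 CPM (SD, n = 8). No step between neighbouring APOE groups in the order of means exceeded the SD of both. Breed accounted for 24.6% of the variance of log2 CPM of GRN among the grouped ewes and state for 46.0%, and the 12 groups together for 78.2%. The same shares for APOE were 10.6%, 27.8% and 49.0%. All these shares include the synchronised follicular ewes that chose the genes, so they are not independent of the choice.

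**Figure D1:**
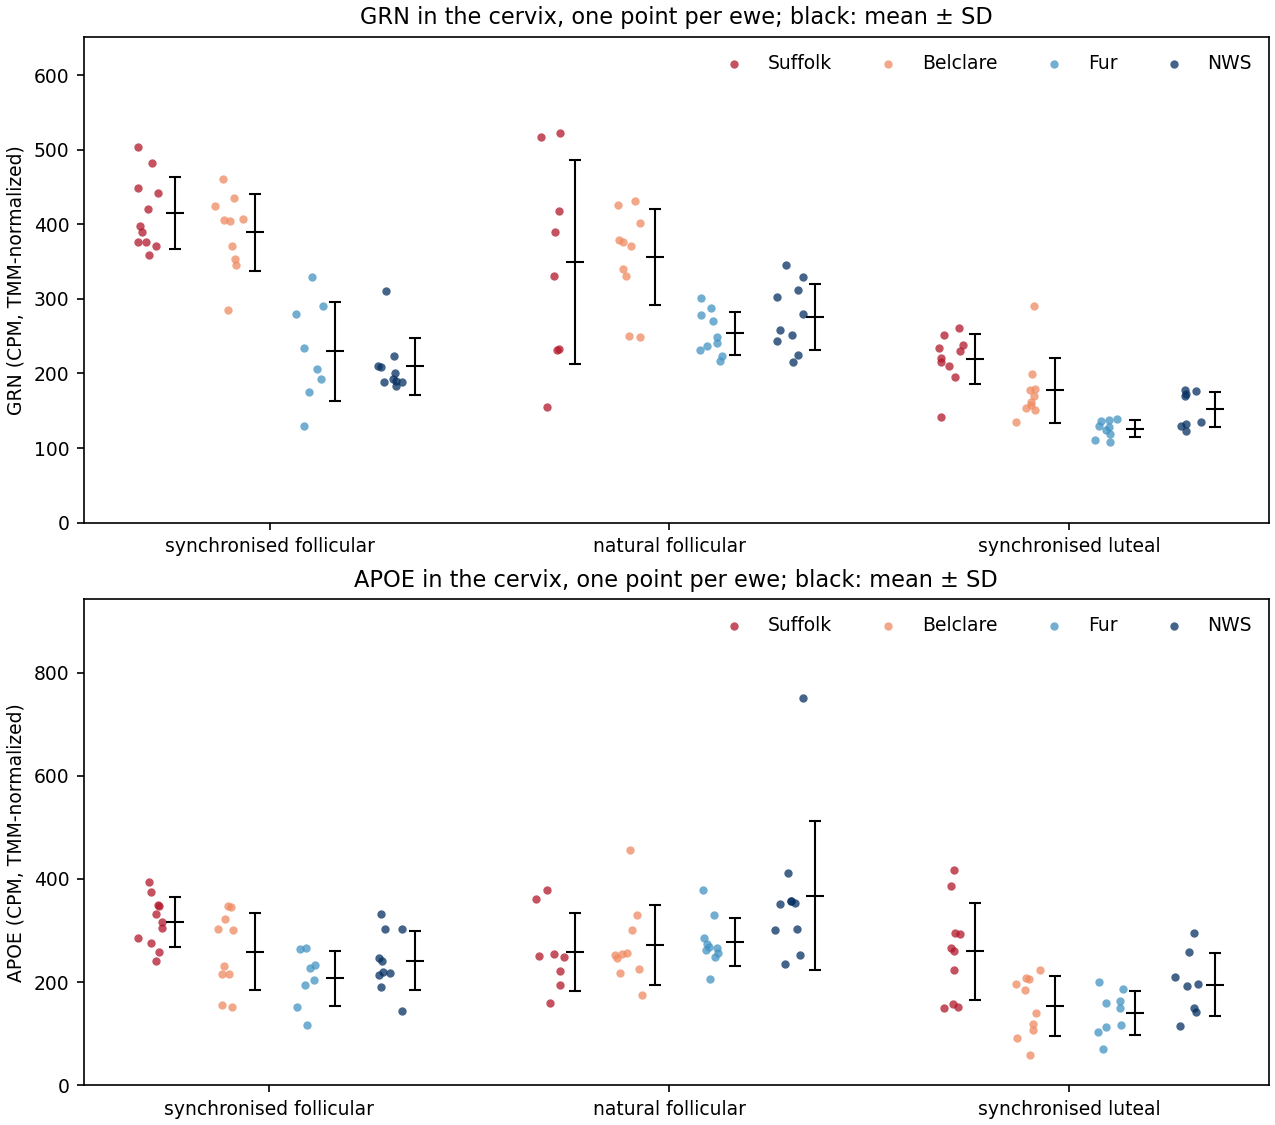
Level of GRN (top) and APOE (bottom) in CPM for each grouped ewe, ordered by state along the horizontal axis and coloured by breed, with the mean and SD of each group in black. GRN of Suffolk and Belclare at the synchronised follicular phase sits between 285 and 504 CPM, while luteal GRN of every breed sits at 290.0 CPM or lower.

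The first tested question was whether the breeds differed from Suffolk in states that had not served in choosing the genes. At the luteal phase GRN was lower in both Norwegian breeds, and APOE was lower in Fur. Every Fur ewe had less GRN than every Suffolk ewe, with a log2 fold change of -0.81 (SE 0.09, adjusted p = 5.08e-05). Between these groups 30.1% of all genes tested passed the test and the levels of 1.48% did not overlap. GRN of NWS was lower by a log2 fold change of -0.52 (SE 0.11, adjusted p = 0.0100), where 8.93% of genes passed, and 4 of 8 NWS ewes lay below every Suffolk ewe. APOE of Fur was lower by -0.90 on the log2 scale (SE 0.22, adjusted p = 0.00603), and 5 of 9 Fur ewes lay below every Suffolk ewe. The APOE log2 fold change of NWS was -0.41 (SE 0.22, adjusted p = 0.265), which did not pass.

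Belclare did not pass against Suffolk at the luteal phase for either gene, where 3.15% of genes passed. Its log2 fold change was -0.31 for GRN (SE 0.12, adjusted p = 0.127) and -0.76 for APOE (SE 0.24, adjusted p = 0.0753), and 5 of 10 Belclare ewes lay below every Suffolk ewe in APOE. With the 4 breeds in one fit, an alternative added after the data were seen, and single ewes left out, GRN of Belclare passed without Belclare replicate 7 (-0.41, adjusted p = 0.00664) or without Suffolk replicate 10 (-0.35, adjusted p = 0.0340). APOE of Belclare passed with the 4 breeds in one fit (-0.75, adjusted p = 0.0388), by DESeq2 (-0.76, adjusted p = 0.0309) and in a fit of all 12 groups (-0.76, adjusted p = 0.00531). The first of these calls held in 27 of 37 fits that each left out 1 ewe.

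Markers of other cell types moved with the luteal breed differences, and single markers of all lists were named after their values were seen. All 6 smooth muscle markers were higher in Fur and all but ACTC1 in NWS, and their summed level was 321 to 995 CPM in Suffolk, 596 to 9598 CPM in Fur and 940.4 to 3937 CPM in NWS. Of 10 myeloid markers, 6 were lower in Fur and 1, ITGAX, in NWS, and the summed level was 375 to 563 CPM in Suffolk, 259 to 429.8 CPM in Fur and 278 to 475 CPM in NWS. All 8 lymphoid markers were lower in Fur and 1, PDCD1, in NWS, with median log2 fold changes of -1.23 and -0.69, and the summed level was 45.4 to 93.2 CPM in Suffolk, 18.01 to 44.0 CPM in Fur and 25.2 to 66.8 CPM in NWS. Of 9 epithelial markers, 6 were lower in Fur and 2, MUC16 and ST14, in NWS, with medians of -0.65 and -0.50, and the summed level was 1745 to 3895 CPM in Suffolk, 551 to 2445 CPM in Fur and 1201 to 2221 CPM in NWS. In Belclare, GPNMB of the myeloid and PDCD1 of the lymphoid markers were lower. Of 9 fibroblast identifiers, 4 were lower in Belclare, 2 in Fur and 1 in NWS, with medians of -0.77, -0.36 and -0.58. In Fur and in NWS 1 was higher. Of all genes tested, 15.6% were lower in Fur, 3.29% in NWS and 2.04% in Belclare. Higher were 2145 of 14811 in Fur and 835 in NWS. Names of the myeloid, lymphoid, epithelial and fibroblast markers come from tables that mostly hold genes higher in Suffolk than in Fur. Their counts are therefore not independent of that direction. The smooth muscle markers are top genes of the paper lower in Suffolk than in Fur or NWS, so their counts are not independent either. The part of the lymphoid, epithelial and fibroblast markers in the GRN and APOE values was not tested. The macrophage markers CD14, CD68, CD163 and CSF1R had no identifier in the tables of names. With ACTG2 and DES, as their mean log2 CPM, for a covariate, GRN of Fur stayed past the threshold (-0.76, adjusted p = 0.00806) and GRN of NWS did not (-0.29, adjusted p = 0.581). With that of the leukocyte genes ITGB2 and LCP1, both on the myeloid list but not specific to myeloid cells, as a covariate, APOE of NWS passed (-0.79, adjusted p = 0.0448).

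At the natural follicular phase neither gene passed against Suffolk in any breed. GRN of Fur had a log2 fold change of -0.48 (SE 0.19, adjusted p = 0.0725), where 20.2% of genes passed, and no Fur ewe lay below the lowest Suffolk ewe. GRN of NWS had -0.35 (SE 0.20, adjusted p = 0.346), where 1.04% of genes passed. GRN of Belclare had 0.02, with an interval of 2 SE from -0.38 to 0.43 (adjusted p = 0.980). In that comparison edgeR called 0% of genes, with 1443 at an unadjusted p under 0.05, and DESeq2 called 20 genes. The Fur value passed with the 4 breeds in one fit (-0.47, adjusted p = 0.0407) and in a fit of all 12 groups (-0.46, adjusted p = 0.00811), and the former call held in 28 of 38 fits that each left out 1 ewe. The NWS value passed without Suffolk replicate 7 (-0.46, adjusted p = 0.0265). With ACTG2 and DES as a covariate both values turned to the other sign, to 0.10 in Fur (adjusted p = 0.829) and 0.06 in NWS (adjusted p = 0.971). The summed smooth muscle level was 69.4 to 6141 CPM in Suffolk, 1683 to 7808 CPM in Fur and 1292 to 22991 CPM in NWS, and 1 of 6 markers, ASB2, passed as higher in Fur. Of the 9 epithelial markers, 8 were lower in Fur and 2, CLDN3 and ST14, in NWS, with median log2 fold changes of -0.98 and -0.72. Their summed level was 1636 to 7515 CPM in Suffolk, 1369 to 2808 CPM in Fur and 1055 to 2998 CPM in NWS. Of the lymphoid markers TNFRSF13B was lower in Fur, and no myeloid marker passed in either breed by edgeR, with 3 in Fur and 2 in NWS at an unadjusted p under 0.05. Of 9 fibroblast identifiers, 3 were lower and 1 higher in Fur, and none passed in NWS, with 4 at an unadjusted p under 0.05. Of all genes tested, 12.7% were lower in Fur and 74 of 14811 in NWS, and 1117 and 80 were higher. The part of the epithelial and fibroblast markers was not tested.

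For APOE in the natural cycle, NWS had a log2 fold change of 0.50 (SE 0.22, adjusted p = 0.209), with 2 of 10 NWS ewes above every Suffolk ewe. With the 4 breeds in one fit it was 0.495 (adjusted p = 0.0741) with all ewes and 0.316 (adjusted p = 0.183) without NWS replicate 5, the NWS maximum, and it passed where NWS replicate 7 (0.55, adjusted p = 0.0458) or Suffolk replicate 2 (0.60, adjusted p = 0.0447) was left out. Fur had 0.08, with an interval of 2 SE from -0.22 to 0.38 (adjusted p = 0.734), and Belclare had 0.07, with an interval from -0.30 to 0.43 (adjusted p = 0.923). Without NWS replicates 4 and 10 the NWS value was 0.51 (adjusted p = 0.308).

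For the breed comparisons of the synchronised follicular phase, the log2 fold change of GRN was -0.85 (SE 0.14) in Fur and -0.99 (SE 0.09) in NWS. That of APOE was -0.61 (SE 0.14) in Fur and -0.39 (SE 0.12) in NWS. Of all genes tested, 31.6% passed between Fur and Suffolk and 41.7% between NWS and Suffolk. Belclare took no part in the choice, but the Suffolk ewes it was compared with did, so its values are given with no test. They were -0.10 in GRN (SE 0.09) and -0.29 in APOE (SE 0.15), where 1 gene or 0.00675% passed.

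**Figure D2:**
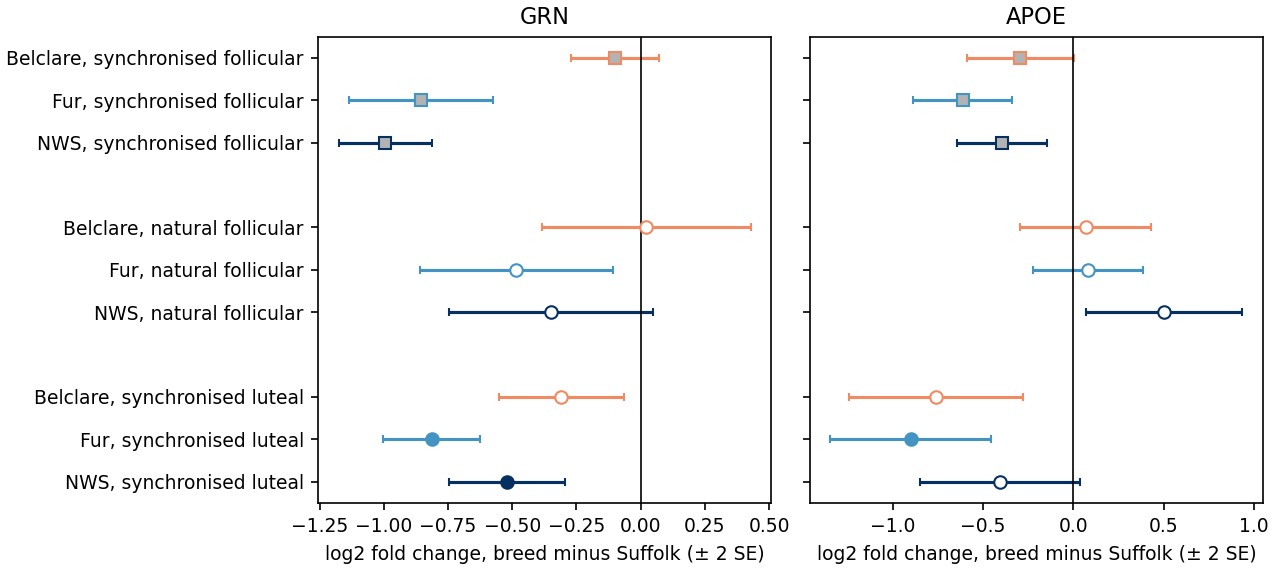
Log2 fold change of each breed against Suffolk for GRN (left) and APOE (right) in the 3 states, with bars of 2 SE on each side. Filled circles passed an adjusted p of 0.05, open circles did not, and grey squares are the comparisons with the synchronised Suffolk ewes that chose the genes, which carry no test. APOE of NWS lies at -0.39 in the synchronised follicular phase and at 0.50 in the natural one.

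Whether the distance from Suffolk changed between the natural follicular and the luteal phase was tested as an interaction. The luteal ewes were synchronised, so phase and kind of cycle cannot be told apart here. For APOE the breed difference was more positive in the natural cycle by 1.0 on the log2 scale in Fur (SE 0.28, adjusted p = 0.0550), where 1.45% of genes passed. It was more positive by 0.91 in NWS (SE 0.31, adjusted p = 0.562), where 0.0135% of genes passed, and by 0.83 in Belclare (SE 0.32, adjusted p = 0.298), where edgeR called 0% and DESeq2 called 45 genes. None passed here, but the Fur value passed by DESeq2 (0.98, adjusted p = 0.0231), with ACTG2 and DES as a covariate (1.05, adjusted p = 0.0332) and in a fit of all 12 groups (0.995, adjusted p = 0.0471). For GRN the differences were 0.35 in Fur, 0.18 in NWS and 0.34 in Belclare, with adjusted p from 0.412 to 0.937.

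Against Belclare, the other Irish breed, GRN of Fur was lower in both states tested. The log2 fold change was -0.49 in the natural cycle (SE 0.10, adjusted p = 0.000762), where 40.6% of genes passed, and -0.50 at the luteal phase (SE 0.11, adjusted p = 0.00181), where 39.1% passed. In the natural cycle 5 of 10 Fur ewes lay below every Belclare ewe, and at the luteal phase 6 of 9. GRN of NWS was lower in the natural cycle by -0.37 on the log2 scale (SE 0.12, adjusted p = 0.0297), where 21.2% passed, and had -0.23 at the luteal phase (SE 0.13, adjusted p = 0.211), where 25.2% passed. The natural NWS call was lost without NWS replicates 4 and 10 (-0.37, adjusted p = 0.0612). With ACTG2 and DES as a covariate the 3 calls were lost as well, at -0.12 (adjusted p = 0.409) and -0.37 (adjusted p = 0.0817) in Fur and -0.18 (adjusted p = 0.624) in NWS. With ITGB2 and LCP1 they were lost in luteal Fur (-0.26, adjusted p = 0.175) and natural NWS (-0.24, adjusted p = 0.393). All 6 smooth muscle markers were higher in both Norwegian breeds in the natural cycle and in Fur at the luteal phase, where all but ACTC1 were higher in NWS. Of the 9 epithelial markers, all were lower in Fur and 8 in NWS in the natural cycle, and 8 and 6 at the luteal phase, with summed levels in Belclare of 2692 to 7122 CPM and 2053 to 3734 CPM. Of the 10 myeloid markers, 2 and 4 were lower in Fur and NWS in the natural cycle, and 4 and 2 at the luteal phase, where GPNMB was higher in both. ITGB2 and NFAM1 were lower in both breeds in the natural cycle, with LCP1 and ACP5 in NWS. At the luteal phase ACP5 and NFAM1 were lower in both, with LCP1 and ITGB2 in Fur. Of the 8 lymphoid markers, IKZF3 was lower in both breeds and both states, TNFRSF13B in Fur in both states and in NWS at the luteal phase, and CD27 and IKZF1 in luteal Fur. Of 9 fibroblast identifiers, 5 were lower and 1 higher in natural Fur, and 1 was higher in natural NWS. At the luteal phase 4 were higher in each breed. Of the 14811 genes tested, 3085 were lower in Fur and 1298 in NWS in the natural cycle, and 2904 and 1666 at the luteal phase. In that order 2935, 1841, 2892 and 2059 were higher. The part of the epithelial, lymphoid and fibroblast markers was not tested.

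APOE did not pass against Belclare in either state. Its log2 fold change was 0.03 in Fur and 0.43 in NWS in the natural cycle (adjusted p = 0.901 and 0.111), and -0.14 in Fur and 0.34 in NWS at the luteal phase (adjusted p = 0.673 and 0.297). Between NWS and Fur neither gene passed in any state, where 0.00675%, 0.0405% and 0.0540% of genes passed in the synchronised follicular, natural follicular and luteal comparisons. The NWS minus Fur log2 fold change of GRN was -0.15, 0.11 and 0.28 in that order, and that of APOE was 0.21, 0.40 and 0.48, with adjusted p from 0.293 to 0.876 over the 6 values. The synchronised ewes of both breeds had served in choosing the genes.

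The phase comparison asked how the cervix of one breed differed between the luteal and the follicular phase. GRN had the lower mean at the luteal phase in all 4 breeds. The log2 fold change from the synchronised follicular phase was -1.14 in Belclare (SE 0.12, adjusted p = 1.19e-06), where 43.1% of genes passed, and 9 of 10 luteal ewes lay below every follicular ewe. The synchronised follicular levels of Fur, NWS and Suffolk chose the gene, so these breeds are described with no test and their values are not independent of the choice. The log2 fold change was -0.92 in Suffolk (SE 0.09), where 35.5% of genes passed and the groups did not overlap, which held for 2.15% of genes. It was -0.87 in Fur (SE 0.15), where 45.9% passed, and 6 of 9 luteal ewes lay below every follicular ewe. In NWS it was -0.45 (SE 0.11), where 41.7% passed and the groups again did not overlap, which held for 2.80% of genes. Whether the breeds differed in this change was not tested.

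APOE was lower at the luteal phase in Belclare, with a log2 fold change of -0.76 (SE 0.23, adjusted p = 0.0112). Described with no test, the value was -0.57 in Fur (SE 0.20), -0.28 in Suffolk (SE 0.17) and -0.29 in NWS (SE 0.18). With ACTG2 and DES as a covariate the Fur value was -0.56. The synchronised follicular ewes of Suffolk, Fur and NWS had also served in choosing both genes, so the luteal ewes were compared with natural follicular ewes too, which had not. That comparison was added after the data were seen.

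Against natural follicular ewes GRN was again lower in the synchronised luteal ewes of each breed. Phase and kind of cycle change together in this comparison, and their parts cannot be told apart. The log2 fold change was -1.0 in Belclare (adjusted p = 1.79e-05), -1.02 in Fur (adjusted p = 2.16e-08), -0.84 in NWS (adjusted p = 0.000537) and -0.67 in Suffolk (adjusted p = 0.0231), where 39.6%, 40.4%, 13.5% and 20.8% of genes passed. The Fur and the NWS groups did not overlap, which held for 5.21% and 0.851% of genes. APOE was lower by -0.82 in Belclare (SE 0.22, adjusted p = 0.00561), by -0.999 in Fur (SE 0.16, adjusted p = 0.000128) and by -0.89 in NWS (SE 0.21, adjusted p = 0.0122) on the log2 scale. All 9 luteal Fur ewes lay below every natural Fur ewe in APOE. In Suffolk the APOE value was 0.01 (SE 0.22, adjusted p = 0.985), with an interval of 2 SE from -0.43 to 0.44.

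Between the natural and the synchronised follicular phase Fur, NWS and Suffolk are described with no test, since their synchronised ewes chose the genes. The log2 fold change of GRN was 0.15 in Fur (SE 0.14), 0.38 in NWS (SE 0.11) and -0.24 in Suffolk (SE 0.18), natural minus synchronised. That of APOE was 0.43 in Fur (SE 0.15), 0.59 in NWS (SE 0.18) and -0.29 in Suffolk (SE 0.15). In APOE 5 of 10 natural Fur ewes and 6 of 10 natural NWS ewes lay above every synchronised ewe of their breed. Of all genes tested 18.1% passed in Fur, 0.0135% in NWS and 0% in Suffolk, where 1267 genes had an unadjusted p under 0.05 and DESeq2 called 3. Belclare, whose ewes took no part in the choice, did not pass for either gene. Its log2 fold change was -0.13 for GRN, with an interval of 2 SE from -0.35 to 0.09, and 0.07 for APOE, with an interval from -0.29 to 0.42. In Belclare edgeR called 0% of genes, with 293 at an unadjusted p under 0.05, and DESeq2 called 0.

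Many other lysosomal genes were lower at the luteal phase too. Genes for enzymes of the lysosome and their cofactors were measured through 30 identifiers of 28 symbols, and 25 were lower in luteal than in synchronised follicular Belclare ewes, 20 in Suffolk, 17 in Fur and 14 in NWS. The median log2 fold change of the list was -0.81, -0.72, -0.47 and -0.38 in that order, while that of all genes tested lay between -0.01 and 0.02, with 22.8%, 17.6%, 23.6% and 20.4% of all genes lower. Against natural follicular ewes 24, 13, 23 and 20 of the 30 were lower, beside 20.4%, 11.7%, 21.1% and 7.53% of all genes. In these counts, too, phase and kind of cycle change together. The names of the list came from tables that mostly hold genes higher in Suffolk than in Fur at the synchronised follicular phase, so these counts are not independent evidence of a direction that starts from the synchronised Suffolk ewes.

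Single members gave the following values between luteal and synchronised follicular ewes. Their names, too, mostly come from genes higher in synchronised follicular Suffolk than Fur ewes. Values that start from these Suffolk or Fur ewes are not independent of that choice, here and for the other lists below. CTSB, the protease cathepsin B, fell from 525 to 233 CPM in Suffolk (log2 fold change -1.17) and from 412 to 214 CPM in Belclare (-0.95, adjusted p = 1.26e-06). PLD3, a lysosomal exonuclease gene, fell from 529 to 183 CPM in Belclare (-1.54, adjusted p = 3.40e-06) and from 352 to 164 CPM in Fur (-1.10). CTSZ, a carboxypeptidase of the cathepsin family, fell in all 4 breeds, with log2 fold changes of -0.79 in Belclare, -0.87 in Suffolk, -0.77 in Fur and -0.36 in NWS. LGMN, the gene of the protease legumain, also fell in all 4, by -0.50, -0.85, -0.62 and -0.46 in that order. TPP1 fell in Belclare (-0.55) and Suffolk (-0.41), and GLB1 in Belclare (-0.71), Suffolk (-0.67) and Fur (-0.36). Named after its value was seen, CTSF, or cathepsin F, went against the list and was higher at the luteal phase in all 4 breeds, by 0.41 in Belclare, 0.55 in Suffolk, 1.13 in Fur and 1.03 in NWS. The other members that rose, also named afterwards, were CTSW in both Irish breeds, IDUA in both Norwegian breeds and MANBA in Fur.

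**Figure D3:**
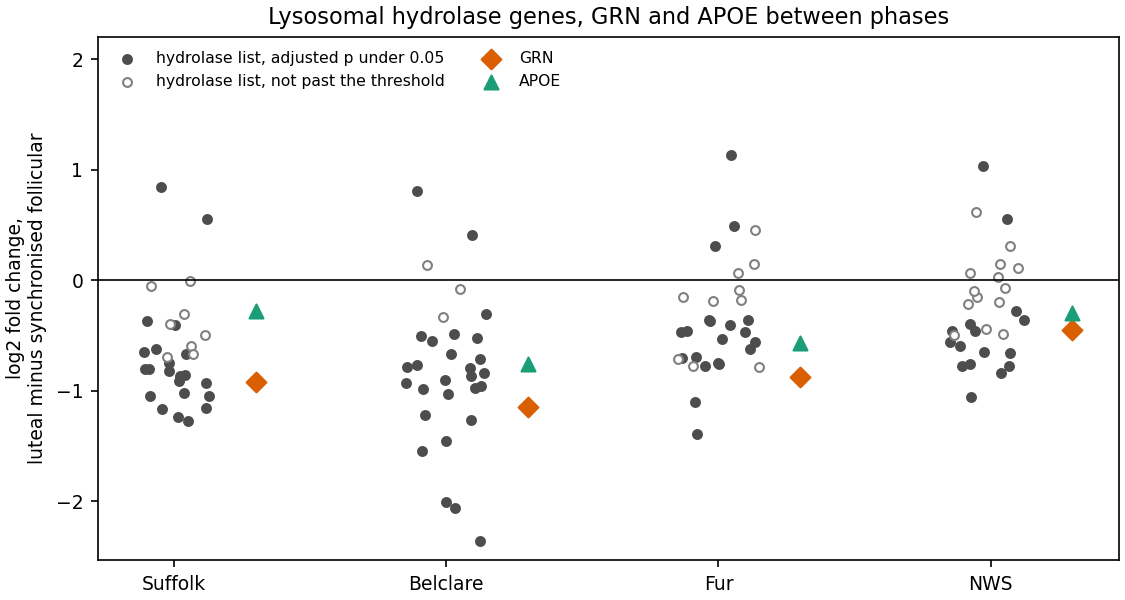
Log2 fold change from the synchronised follicular to the luteal phase in each breed for 30 identifiers of the list of lysosomal enzymes and cofactors (circles, filled where the adjusted p was under 0.05), GRN (diamonds) and APOE (triangles). Most circles lie below 0 in each breed, and GRN lies at -1.14 in Belclare and -0.45 in NWS.

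The partners of progranulin were measured as 5 genes. PSAP, the gene of prosaposin, which binds progranulin and is cut into the saposins, fell at the luteal phase in each breed. Its log2 fold change was -0.49 in Belclare, -0.37 in Suffolk, -0.36 in Fur and -0.28 in NWS. SORT1, the sortilin gene, fell in Suffolk (-0.52) and had -0.34, -0.27 and -0.12 in Belclare, Fur and NWS, which did not pass. IGF2R, a receptor that brings enzymes to the lysosome, fell in Belclare (-0.31) and Suffolk (-0.33). LRP1, a receptor for both prosaposin and apolipoprotein E, fell in Belclare (-1.05), Suffolk (-0.56) and NWS (-0.43). NOTCH1 rose in NWS (0.42, adjusted p = 0.0154). Against natural follicular ewes PSAP was lower in Belclare (-0.41), Fur (-0.72) and NWS (-0.67), and had -0.17 in Suffolk, which did not pass.

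Genes for the membrane of the lysosome passed in both directions at the luteal phase, as genes did over the whole table. Of 15 genes for lysosomal membrane proteins and proton pumps, 7 were lower and 4 higher in Belclare, 7 and 1 in Suffolk, 5 and 5 in Fur, and 2 and 4 in NWS. Of all genes 22.8%, 17.6%, 23.6% and 20.4% were lower and 20.3%, 17.9%, 22.3% and 21.3% higher, in that order. LAMP1, a major glycoprotein of the lysosomal membrane, was lower in Belclare (-0.33) and Suffolk (-0.26) and had -0.12 in Fur and 0.19 in NWS, which did not pass. NPC1, which exports cholesterol from the lysosome, was higher at the luteal phase in Belclare (from 134 to 278 CPM, log2 fold change 1.04, adjusted p = 0.000823) and Fur (0.77). Its values in Suffolk and NWS were 0.30 and 0.42, which did not pass. MCOLN2, a cation channel gene, was higher in Belclare, Fur and NWS. Among those named after their values were seen, TMEM175 was higher in each breed, MCOLN3 in Belclare, Fur and NWS, and CLCN7 in Fur and NWS, while PQLC2 and GLMP were lower in each breed.

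Genes that release lipid to apolipoproteins or take them up passed in both directions too. Of 14 measured, 3 were lower and 3 higher in Belclare, 5 and 1 in Suffolk, 3 and 3 in Fur, and 4 and 3 in NWS, with medians of 0.03, -0.21, 0.22 and 0.18 on the log2 scale. Of all genes 17.6% to 23.6% were lower and 17.9% to 22.3% higher across the breeds. ABCG1, which moves cholesterol out of cells, fell most. It went from 1053 to 226 CPM in Belclare (-2.23, adjusted p = 2.62e-06), from 1163 to 289.7 CPM in Suffolk (-2.003), and by -1.64 and -1.59 in Fur and NWS. ABCA1, the other exporter, did not pass in any breed, with values from -0.45 to 0.34. SOAT1, which stores cholesterol as ester, fell in Suffolk (-0.70), Fur (-1.05) and NWS (-0.60). APOA1, the main apolipoprotein of HDL, was higher at the luteal phase in Fur (0.80) and NWS (0.95), but APOD did not pass in any breed. The others were LRP2 (higher in Belclare and Fur) and LSR (lower in Suffolk) and, named after their values were seen, APOBR (higher in Belclare, Suffolk and NWS), PLIN2 (higher in NWS) and CYP27A1 (lower in Belclare, Fur and NWS). NPC1, LRP1 and SORT1 belong to this list too.

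Markers of other cells moved between the phases as well. Of 9 fibroblast identifiers, 7 were lower at the luteal phase in Belclare, 6 in Suffolk, 3 in Fur and 5 in NWS, counted against the synchronised follicular phase. Those of Fur were FAP, FBLN1 and 1 identifier of THBS2, and those of NWS were FAP, FBLN1 and all 3 of THBS2. The summed fibroblast level was 1836 to 5964 CPM in follicular and 1154 to 2590 CPM in luteal Suffolk ewes, and 1488 to 3782 against 521 to 1392 CPM in Belclare. It was 1083 to 2169 against 650.3 to 1689 CPM in Fur and 1546 to 2903 against 567 to 1911 CPM in NWS. Of 10 myeloid markers, 3, 4, 1 and 1 were lower in Belclare, Suffolk, Fur and NWS, beside 22.8%, 17.6%, 23.6% and 20.4% of all genes. HMOX1, CYBA and IRF8 were the 3 in Belclare and, with ACP5, the 4 in Suffolk, and IRF8 was the 1 in Fur and NWS, while ITGAX was higher in both Irish breeds and GPNMB in both Norwegian breeds. Of 9 epithelial markers, 3 were lower in Belclare, 5 in Suffolk, 2 in Fur and 1 in NWS. MUC16 was among them in each breed, MUC1 in all but NWS, MUC5B in both Irish breeds, and CLDN7 and ST14 in Suffolk, while CLDN4 was higher in each breed and CLDN3 in both Norwegian breeds. The summed epithelial level was 3264 to 6089 CPM in follicular and 1745 to 3895 CPM in luteal Suffolk ewes, and 1413 to 6124 against 2053 to 3734 CPM in Belclare. It was 1043 to 3840 against 551 to 2445 CPM in Fur and 1554 to 2857 against 1201 to 2221 CPM in NWS. Of 8 lymphoid markers none was lower, and PTPRCAP was higher in Belclare, Fur and NWS, IKZF3 in Belclare and NWS and TNFRSF13C in NWS. The part of the fibroblast, epithelial and lymphoid markers in the GRN and APOE values was not tested. Of 6 smooth muscle markers all but ASB2 were lower in NWS, ACTG2 and ACTC1 in Fur and ACTC1 in Belclare, and ASB2 and DES were higher in Suffolk. With ACTG2 and DES as a covariate GRN of luteal Belclare ewes was lower by -1.11 and with ITGB2 and LCP1 by -1.23 on the log2 scale, next to -1.14 without a covariate.

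In the breed comparisons with Suffolk the list of lysosomal enzymes was counted in both states that took no part in the choice of GRN and APOE. The list itself was not free of breed. Its names mostly come from genes higher in Suffolk than in Fur at the synchronised follicular phase, so these counts are not independent of that direction. At the luteal phase 17 of 30 identifiers were lower in Fur, 4 in NWS and 1, MAN2B2, in Belclare, with medians of -0.34, -0.23 and -0.16 beside 15.6%, 3.29% and 2.04% of all genes lower. The 4 in NWS were PSAP, CTSB, SGSH and ACP2. PSAP had a mean of 1243 CPM in Suffolk, against 897 CPM in Fur (-0.48, adjusted p = 0.000335) and 929 CPM in NWS (-0.41, adjusted p = 0.00707). In the natural cycle 7 were lower in Fur, where 12.7% of all genes were, and the list median was -0.04. In NWS none passed there by edgeR, with 6 at an unadjusted p under 0.05, and the median was -0.03. PLD3, at 431 CPM in Suffolk, 427 CPM in Fur and 468 CPM in NWS, and PSAP, at 1400, 1465 and 1505 CPM, did not pass in the natural cycle. LRP1 (-0.86), LRP8 (-0.98) and NPC1 (-0.75) were lower in Fur than in Suffolk there. In NWS, NPC1 (-0.97, adjusted p = 0.0432) and LSR, a lipoprotein receptor gene (-0.66, adjusted p = 0.0381), were lower, and ACP2, LGMN, PLBD2, LRP1 and LRP8 had -0.65, -0.50, -0.64, -0.70 and -0.91, which did not pass.

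Beyond group means, the 2 genes varied together among ewes of the same group. After the mean of each group was subtracted, the log2 CPM of GRN and APOE correlated with Pearson's r = 0.486 and Spearman's rho = 0.459 over the grouped ewes of all 12 groups. The 2-sided permutation p of each was 1e-05, the smallest that 100000 resamples within groups can give, and no other pair was tested. Without the 2 ewes farthest from the median of GRN, r was 0.468. The sign was positive in 11 of 12 groups, with r from -0.09 in NWS luteal to 0.89 in Suffolk natural follicular ewes. After the slope on ACTG2 and DES was removed r was 0.545, and after that on ITGB2 and LCP1 it was 0.530.

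The genes most like each member over the grouped ewes, by the same r and with no test, were mainly lysosomal for GRN. They were LAMP1 (0.72), ARSA (0.66), SGSH (0.63), LGMN (0.63), ERGIC3 (0.63), PSAP (0.62), APCDD1 (0.62), CTSB (0.62), CTSZ (0.61) and NCSTN (0.61), and 7 of the 10 were on the lists of lysosomal genes, which hold 45 of 14811 genes tested. Those lists could hold only named genes, which were 1338 of the 14811 and mainly genes higher in Suffolk than in Fur. All 10 genes most like GRN were named, and 0 of the 10 least like it. The share of lysosomal genes therefore has no like base among all genes. APOE stood in place 59 among the genes most like GRN, and GRN in place 143 among those most like APOE. Closest to APOE were PLD3 (0.69), ENSOARG00000011122 (0.65) and SCPEP1 (0.64), a lysosomal carboxypeptidase gene. BMP6, a growth factor gene, MMP2, a matrix protease gene of fibroblasts, and HMOX1, the haem oxygenase gene of macrophages, were also among its 10, at 0.62, 0.62 and 0.60, and the remaining 4 had no name. Depth was shared little, since r with the log2 total count was 0.17 for GRN and 0.12 for APOE.

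Correlations with the markers of cell types are given over the same ewes with no test. With the mean of ACTG2 and DES, r was -0.44 for GRN, negative in 10 of 12 groups but 0.74 in NWS natural and 0.18 in Suffolk synchronised follicular ewes, and 0.01 for APOE. With the mean of ITGB2 and LCP1, r was 0.39 for GRN and -0.01 for APOE, and the median r over the 10 myeloid markers was 0.33 with GRN and 0.20 with APOE, positive for 10 and 8 of them. The APOE value differed widely among these markers, from -0.03 to 0.60. Of the 30 identifiers of lysosomal enzymes 29 correlated positively with GRN, with a median r of 0.456, and 27 with APOE, with a median of 0.337, while the medians over all 14809 other genes tested were -0.01 for both. The lists hold named genes only, and no median over the named genes alone was taken. For the 9 fibroblast identifiers the median r was 0.29 with GRN and 0.38 with APOE, and for the 9 epithelial markers it was 0.30 and -0.11.

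**Figure D4:**
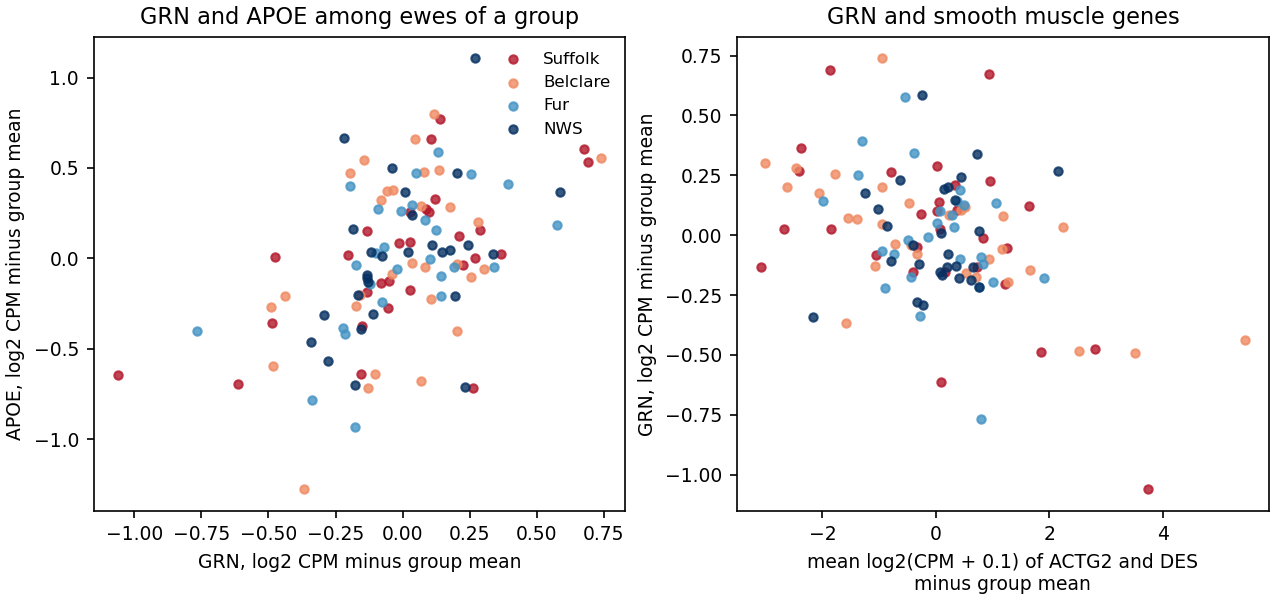
Left, APOE against GRN for each grouped ewe, both as log2 CPM minus the group mean, coloured by breed. Right, GRN on the same scale against the mean log2 level of the smooth muscle genes ACTG2 and DES minus the group mean. The left cloud rises, with r = 0.486, and the right one falls, with r = -0.44.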

How the data were processed

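Cervical RNA of 115 ewes was sequenced as read pairs. Per the study's methods, the authors trimmed reads with BBDuk, mapped the pairs with STAR 2.6.1b against build Oar_v3.1, keeping unique pairs, and counted pairs per Ensembl gene with featureCounts of Subread 1.6.3. The deposited values are raw counts for 27054 genes, with no normalization. The kit was stranded, but the strand setting of the counting is not given in the sources used here. One Suffolk sample, whose title and other labels name different states, was left out of every comparison.

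GRN, APOE and the gene lists were chosen with earlier results of these data known. Names were read from supplementary tables of the paper. They cover 1338 of the 14811 genes tested (9.03%), mainly genes higher in Suffolk than in Fur, so the lists are not independent of that direction. The smooth muscle markers run the other way, since the paper gives each among its top genes lower in Suffolk than in Fur or NWS. Named genes were the 2 members, the 10 genes most correlated with each, a fixed set of progranulin partners, lipid genes and lysosomal genes, and up to 4 members per list of smallest p in the natural follicular comparison of NWS with Suffolk. Some of the named lysosomal genes are not reported here. No genome of the files' build was used, so positions and sequences are not shown.

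Each pair of groups was fitted with the quasi-likelihood test of edgeR 4.0.16 in R 4.3.3 on TMM-normalised counts, with Benjamini-Hochberg adjustment over the 14811 genes that reached 1 CPM in 10 or more of the 39 ewes of the synchronised follicular phase. A gene passed, and is called higher or lower, at an adjusted p under 0.05. The SE is the absolute log2 fold change over the root of F, and intervals span 2 SE on each side. CPM levels used library sizes normalised over all libraries, and correlations used log2 CPM with a prior count of 2. Interactions compared 4 groups in one fit. The study's methods used the DESeq2 likelihood ratio test, which was an alternative here (DESeq2 1.42.0), beside other size factors, no filter, wider fits, a replicate block, marker covariates and leaving out ewes. The fit of 4 breeds together, the natural follicular reference for the luteal phase and the removal of NWS natural follicular replicates 4 and 10 were added after the data were seen. Scripts were tested on simulated data. Among 490 pairs of libraries of one group, chi-square over its degrees of freedom was never under 16.5, so no library was a copy of another of its group. Libraries of different groups were not compared in this way. For the synchronised follicular phase the study's methods count as many ewes of each breed as there are libraries. For the other states the sources used here do not say whether libraries came from separate ewes, and p-values measure the spread between libraries. Counting error at 936 or more counts was small beside that spread.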

Additional observations from a re-analysis of the deposited data

Results flagged for a closer look

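In 11 groups of 8 to 10 ewes the values of GRN and APOE were tested for an ewe that stood apart by Dixon's criterion, and 3 of these 22 sets of values had one, where chance gives about 1 in 20. GRN of Belclare luteal replicate 7 was 290.0 CPM and the next ewe of its group had 199.9 CPM. Its LCP1 level of 83.7 CPM and its summed lymphoid markers of 140.1 CPM were the highest of that group. GRN of NWS synchronised follicular replicate 2 was 310.8 CPM against 223.5 CPM in the next ewe, and its summed myeloid (540.6 CPM), lysosomal enzyme (5363 CPM) and fibroblast markers (2903 CPM) were the highest of that group. APOE of NWS natural follicular replicate 5 was 750.5 CPM against 411 CPM in the next ewe, and its summed smooth muscle markers, at 22991 CPM, were the highest of all ewes. The part of these markers in the 3 values was not tested.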

How the results depend on the processing

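Of 414 alternative values for 55 results, apart from those that left out single ewes, 382 kept direction and side of the threshold. These counts include the comparisons that are described with no test. The cause of the changes was not tested. With the 4 breeds in one fit, chosen after the data were seen, GRN of Fur against Suffolk in the natural cycle was -0.47 and APOE of luteal Belclare -0.75, and with all 12 groups -0.46 and -0.76, all past the threshold. DESeq2 called APOE of luteal Belclare (-0.76) and the APOE interaction of Fur (0.98), which also passed with all 12 groups (0.995) and with ACTG2 and DES (1.05). GRN of NWS between the follicular phases, described with no test since the synchronised ewes chose the gene, was 0.39 by DESeq2. With ACTG2 and DES, GRN of Fur and NWS against Suffolk in the natural cycle turned to 0.10 and 0.060. Calls were lost for GRN of luteal NWS against Suffolk (-0.29) and GRN against Belclare (-0.12 and -0.37 in natural and luteal Fur, -0.18 in natural NWS). APOE of luteal Fur against its synchronised follicular phase, described with no test, was -0.56. With ITGB2 and LCP1, GRN of Fur at the synchronised follicular phase moved to -0.525, GRN of natural Belclare against Suffolk turned to -0.049, APOE of luteal Fur against Belclare to 0.0095 and GRN of Suffolk between the follicular phases to 0.048. The same covariate brought APOE of luteal NWS (-0.79) past the threshold and lost GRN of luteal Fur (-0.26) and natural NWS (-0.24) against Belclare, the latter also without NWS replicates 4 and 10 (-0.37). With ITGB2 and LCP1, GRN of NWS between the follicular phases was 0.42, again with no test. The natural reference, also chosen afterwards, gave APOE -0.89 (called) in luteal NWS and 0.0072 in Suffolk. APOE of Fur between the follicular phases, described with no test since the synchronised ewes chose the gene, was 0.43. It was 0.42 with other size factors, no filter, the muscle covariate or all 12 groups, and 0.52 with the replicate block. Apart from that value the replicate block changed no call among 54. In none of 28 comparisons did every pair of same-numbered ewes correlate above 0.1, and the median of such pairs ran from -0.21 to 0.16. Ewes were therefore not treated as paired, though this measure could miss a weak pairing.

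Leaving out each ewe in turn, with the 4 breeds in one fit, gave GRN against Suffolk -0.084 to 0.13 in natural Belclare, -0.58 to -0.36 in natural Fur, -0.46 to -0.24 in natural NWS and -0.41 to -0.26 in luteal Belclare. It gave APOE -0.042 to 0.17 in natural Belclare, 0.32 to 0.60 in natural NWS and -0.83 to -0.65 in luteal Belclare. GRN of natural Fur stayed called in 28 of 38 fits, and the call was lost without Suffolk replicate 2, 3, 5 or 9 or Fur replicate 1, 4, 5, 6, 8 or 10 (highest adjusted p = 0.134). APOE of luteal Belclare stayed called in 27 of 37, and the call was lost without Belclare replicate 3, 5, 6, 9 or 10 or Suffolk replicate 2, 3, 4, 5 or 8 (highest adjusted p = 0.0851). GRN and APOE of luteal Fur and GRN of luteal NWS were called in all 37. Between NWS and Suffolk in the natural cycle edgeR called 154 genes, DESeq2 965 and the fit of all 12 groups 2670.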

Other observations

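The Suffolk sample whose labels name different states, and which entered no comparison, had 175 CPM of GRN, 335 CPM of APOE and 238 CPM of ACTG2.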
